A study of Mus musculus with 2 samples.

Results

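The transcripts described here are those of mitochondrial ATP synthase, of the SLC25 family of mitochondrial carriers and of the VDAC channels, measured in Purkinje cells, the inhibitory neurons that carry the output of the cerebellar cortex. Members were the protein-coding genes whose symbol begins with Atp5 or Slc25a, together with Vdac1, Vdac2 and Vdac3, which gave 67 of the 21474 protein-coding genes in the tables: 17 Atp5 genes, 47 Slc25a genes and 3 Vdac genes. The rule used no measured value. The data are RNA sequencing of 2 pools of 30 cells each, taken by laser capture from adult male B6CASTF1/J mice aged 14 months, a first-generation cross of C57BL/6 and CAST. No treatment is labelled, the pools form a single group and both carry spike-in RNA. The labels number them as biological replicates 1 and 2 but give both the same donor identifier, without saying whether they came from a single animal. The spread between pools, given as SD with n = 2, may therefore be only partly biological.

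ATP synthase turns the proton gradient across the inner mitochondrial membrane into ATP. Protons pass through a ring of c subunits, the ring turns a central stalk inside the catalytic head, and a peripheral stalk holds the head still. SLC25 carriers move ADP, ATP, phosphate and other metabolites across the inner membrane, and VDAC channels let such molecules cross the outer membrane. Purkinje cells fire continuously and are known for a high demand for ATP.

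Gene levels are in TPM, a transcript abundance corrected for length and for depth, and detection was set at 1 TPM or more. Gene counts came to 31437230 in pool 1 and 28591242 in pool 2, and the members held 1.80% and 1.73% of them. Of 16 defining markers of Purkinje cells, such as Pcp2 and Calb1, 14 were detected in both pools, with summed TPM of 50496 and 48782. Of 13 markers of Bergmann glia and astrocytes, which lie against Purkinje cells, 12 were detected in both pools, and their summed TPM was 2835 in pool 1 and 4977 in pool 2. The exception was Gfap, under 1 TPM in both. Red blood cell genes summed to 2453 TPM in pool 1 and 16.3 in pool 2, so the pools differ in what else they hold. In pooled cells, fewer cells of a type and less RNA per cell cannot be told apart.

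All 17 Atp5 genes were detected in both pools, as were all 3 Vdac genes, but only 19 of the 47 carriers. A further 7 carriers were detected in a single pool and 21 in neither. In all, 39 of 67 members (58.2%) were detected in both pools, against 30.3% of all protein-coding genes. The median level on the log2(TPM + 1) scale was 10.30 ± 0.08 (SD, n = 2) for Atp5 genes, 6.92 ± 0.09 for Vdac genes and 0.91 ± 0.33 for carriers. The median was 0.27 ± 0.03 over all protein-coding genes and 2.18 ± 0.18 over those detected in at least 1 pool. Over carriers detected in at least 1 pool it was 2.10 ± 0.09. Summed TPM was 23595 ± 478 for the Atp5 genes, 1321 ± 18.3 for the carriers and 304 ± 6.32 for the channels. Among the 1000 protein-coding genes with the highest mean TPM, 21 were members.

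The sequences below show where the messages of 3 related genes differ although their proteins share a stretch, and where a choice of exon can be read. The 3 genes for subunit c, Atp5g1 (chromosome 11, 96068852 to 96075670, build mm10), Atp5g2 (chromosome 15, 102662864 to 102672352) and Atp5g3 (chromosome 2, 73908447 to 73911326), encode proteins whose last 78 residues are the same in all 3. The coding sequence of that shared stretch, 234 bases without the stop codon, is printed 5′ to 3′ on the transcript strand from GENCODE M21 transcripts, with capitals at each base that is not the same in all 3 genes.
Atp5g1: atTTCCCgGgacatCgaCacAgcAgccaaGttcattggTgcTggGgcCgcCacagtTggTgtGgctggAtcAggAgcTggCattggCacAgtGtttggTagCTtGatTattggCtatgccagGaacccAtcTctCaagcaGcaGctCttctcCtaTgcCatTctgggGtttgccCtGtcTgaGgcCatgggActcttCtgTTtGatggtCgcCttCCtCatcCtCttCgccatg
Atp5g2: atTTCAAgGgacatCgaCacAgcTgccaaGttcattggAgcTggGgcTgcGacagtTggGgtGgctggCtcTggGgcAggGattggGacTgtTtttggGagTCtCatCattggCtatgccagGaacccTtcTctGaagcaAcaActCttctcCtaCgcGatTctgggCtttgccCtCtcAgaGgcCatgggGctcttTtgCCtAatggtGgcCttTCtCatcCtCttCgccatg
Atp5g3: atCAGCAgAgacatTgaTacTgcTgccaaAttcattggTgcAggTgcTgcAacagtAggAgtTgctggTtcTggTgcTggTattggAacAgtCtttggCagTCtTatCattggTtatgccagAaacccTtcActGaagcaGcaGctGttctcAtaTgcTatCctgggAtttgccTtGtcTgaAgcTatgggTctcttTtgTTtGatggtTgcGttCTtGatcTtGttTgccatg
Capitals fall at 63 of the 234 bases, 55 of them at the third position of a codon and 8 at the first or second. Atp5g1 and Atp5g2 differ at 36 bases of this stretch, Atp5g1 and Atp5g3 at 50, and Atp5g2 and Atp5g3 at 53. The ring protein made from the 3 messages is therefore the same over this stretch, while the messages themselves carry differences by which reads can be told apart.

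The second set comes from Slc25a3 (chromosome 10, 91116574 to 91124059), the carrier that brings phosphate into the matrix. The gene has a pair of alternative coding exons, known for a different balance in muscle and in other tissues. Which exon goes with which tissue is not assigned here. The upstream exon lies on the minus strand at chr10:91122207-91122331 and the downstream exon at chr10:91121922-91122043. Both are printed 5′ to 3′ on the minus strand, with capitals at the bases that do not match in the alignment of the exons.
upstream exon: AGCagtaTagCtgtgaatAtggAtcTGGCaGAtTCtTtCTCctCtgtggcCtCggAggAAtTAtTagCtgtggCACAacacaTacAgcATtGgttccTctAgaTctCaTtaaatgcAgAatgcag
downstream exon: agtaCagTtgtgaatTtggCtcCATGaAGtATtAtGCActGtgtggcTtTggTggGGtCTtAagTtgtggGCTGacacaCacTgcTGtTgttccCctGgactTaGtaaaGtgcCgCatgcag
The exons have 125 and 122 bases, and 80 of 126 aligned positions (63.5%) are identical. The transcript with the upstream exon held 92.9% of the gene's TPM in pool 1 and 90.3% in pool 2, and the transcripts with the downstream exon 7.01% and 9.64%. The mean was 91.6% ± 1.87 for the upstream exon and 8.33% ± 1.86 for the downstream exon, so the upstream form was about as dominant in each pool. These shares are estimates over whole transcripts. Slc25a3-206, which holds the upstream exon, and Slc25a3-203, the main transcript with the downstream exon, also differ by 48 bases at the 5′ end and 16 bases at the 3′ end.

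The catalytic head is built from the products of Atp5a1 (alpha), Atp5b (beta, which holds the catalytic sites), Atp5c1 (gamma, the turning stalk), Atp5d (delta) and Atp5e (epsilon). Atp5b (chromosome 10, 128083273 to 128090391) stood at 2435 TPM in pool 1 and 2518 in pool 2, and Atp5e at 1202 and 1313. Atp5c1 gave 414 and 371, Atp5a1 381 and 278, and Atp5d 75.1 and 63.2. These levels span 35.8-fold from Atp5d to Atp5b although the assembled head holds the subunits in fixed, small whole numbers. Alpha and beta alternate in equal numbers in the head, yet Atp5b exceeded Atp5a1 by 7.73 ± 1.89 times in TPM. That ratio rests on how reads were shared among transcripts, as shown further on.

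In the c ring, Atp5g3 stood at 1879 and 1763 TPM, Atp5g1 at 1221 and 1332, and Atp5g2 at 27.9 and 24.1. Atp5g3 therefore held 60.1% and 56.5% of the c-ring TPM, a mean of 58.3% ± 2.51, and Atp5g1 held 39.0% and 42.7%, a mean of 40.9% ± 2.59. Atp5g2 held 0.833% ± 0.085, with no overlap with either of the others. By expected counts, which favour longer messages, the shares were 62.8% for Atp5g3, 36.2% for Atp5g1 and 0.92% for Atp5g2. Adding the TPM of matching pseudogenes, which are described below, gave 47.8% ± 1.94 for Atp5g3 and 49.6% ± 2.50 for Atp5g1. By the mean, the order of the leading pair thus turned with the treatment of pseudogenes, although in pool 1 Atp5g1 stayed just below Atp5g3. The matching pseudogenes are shorter than the Atp5g1 message, which raises their TPM per read. Atp5g2 remained the lowest at 2.63%.

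By gene TPM, the peripheral stalk held the highest member, although most of that level was assigned to a transcript not annotated as coding, as shown further on. Atp5j, which encodes coupling factor 6 (chromosome 16, 84827866 to 84835625), stood at 4214 TPM in pool 1 and 4960 in pool 2. Atp5h, subunit d, gave 2488 and 2160, Atp5o, the subunit that confers oligomycin sensitivity, 1216 and 1250, and Atp5f1, subunit b, 597 and 532. Across this stalk the lowest and highest means differ 8.12-fold. The accessory membrane subunits lay closer together, within 2.60-fold. Atp5k (subunit e) gave 2269 and 2476 TPM, Atp5mpl, which encodes a small proteolipid, 2134 and 2006, Atp5j2 (subunit f) 1911 and 1844, and Atp5l (subunit g) 790 and 1036. Subunits e and g are known for joining synthase dimers that bend the inner membrane.

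Atp5s stood apart from the other Atp5 genes. Its product, factor B, is not a constant part of the complex, and its message gave 5.49 TPM in pool 1 and 8.07 in pool 2. The range from Atp5s to Atp5j was 677-fold. When the 17 genes were ordered by mean TPM, 10 of the 16 neighbouring pairs did not overlap between the pools and 6 did. The pairs that overlapped included Atp5b with Atp5k and Atp5k with Atp5h, so the order from the second to the fourth gene is not settled by these pools. Longer messages had lower levels. Over the 17 genes, Spearman's rho between mean TPM and effective length was -0.73. The genes share both libraries and the length correction enters TPM itself, so this is a description.

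**Figure D1:**
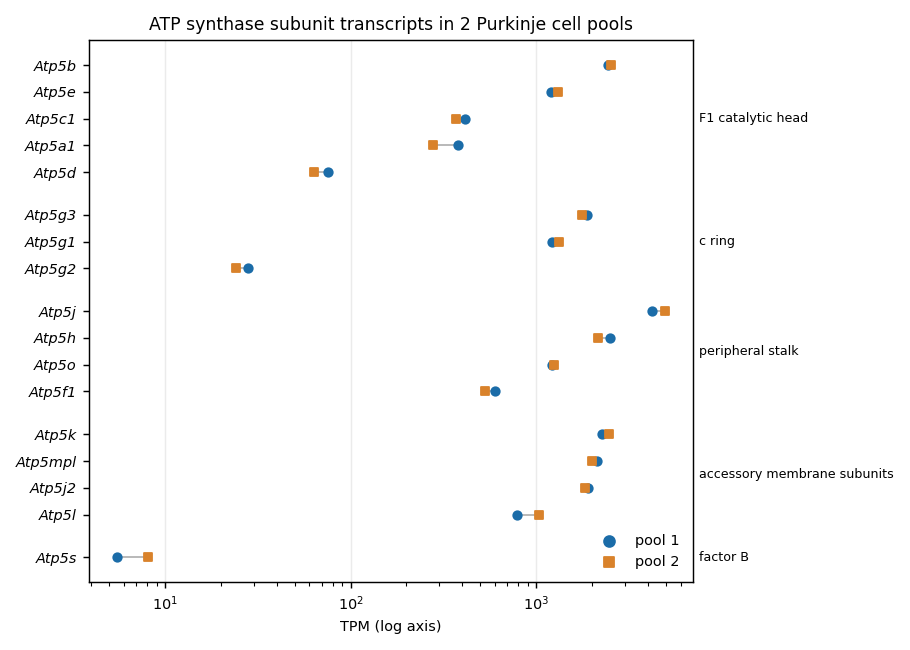
TPM (log axis) of the 17 Atp5 genes in pool 1 (circles) and pool 2 (squares), grouped by the part of the synthase they encode, with a grey line joining the pools. Most genes lie near or above 1000 TPM, Atp5d and Atp5g2 lie between 20 and 100, and Atp5s is lowest at 5.49 and 8.07.

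Among genes of the synthase outside the symbol rule, other subunits and the inhibitor were as high as the Atp5 genes or higher, and assembly factors were lower. The mitochondrial genome encodes subunit a (mt-Atp6) and subunit A6L (mt-Atp8), and these had 10702 and 8240 TPM, and 18429 and 16036 TPM, in pools 1 and 2. Atpif1, which encodes the inhibitor of reverse ATP hydrolysis, had 2244 and 2247. Usmg5 (chromosome 19, 47083464 to 47090647), which encodes the dimer-associated subunit DAPIT and was added after its values were seen, stood at 5680 and 6274 TPM, above every Atp5 gene. The assembly factors Fmc1, Atpaf1, Tmem70 and Atpaf2, named after their values were seen, had means of 126, 20.6, 16.7 and 4.30 TPM. Of a list of 31 partners of the synthase, carriers and channels, 23 were detected in both pools. The highest of the others were Mpc1 (1368 and 1687 TPM) and Mpc2 (300.4 and 266.5), which form the pyruvate carrier outside the SLC25 family, and Micu3 (396 and 355), a neuronal regulator of mitochondrial calcium uptake. Mcu, the pore of that uptake channel, named after its values were seen, was at 0.64 and 0.72 TPM.

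Carriers were led by those that serve the synthase directly. Slc25a4 (chromosome 8, 46206797 to 46211284) and Slc25a5 (chromosome X, 36795651 to 36798807) encode ADP/ATP carriers, which bring ADP in and send ATP out. Slc25a4 stood at 471 TPM in pool 1 and 417 in pool 2, and Slc25a5 at 357 and 405. Slc25a3, the phosphate carrier, gave 400 and 387. The lower pool of Slc25a4 stayed above the higher pool of Slc25a3, while Slc25a3 and Slc25a5 overlapped. These 3 genes held 93.8% of carrier TPM in pool 1 and 90.6% in pool 2. The next carrier, Slc25a11 (oxoglutarate/malate), had a mean of 16.8 TPM.

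Slc25a4 held 53.8% ± 4.35 of ADP/ATP carrier TPM, with 56.9% in pool 1 and 50.7% in pool 2, and Slc25a5 held 43.1% and 49.3%, a mean of 46.2% ± 4.35. Slc25a4 led in both pools, but by a ratio of 1.32 in pool 1 and only 1.03 in pool 2. By expected counts Slc25a4 held 65.1% ± 3.95, since its message is longer. The coding sequences of these 2 genes are 77.6% identical and the proteins 89.6%. Slc25a31, the carrier known from testis, had 0 counts in both pools, and a count of 0 allows up to 3 counts, or 0.048 TPM in pool 1 and 0.056 in pool 2.

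The VDAC genes lay within 1.97-fold of each other. Vdac3 (chromosome 8, 22577075 to 22593813) gave 119 and 125 TPM, Vdac1 (chromosome 11, 52360860 to 52389397) 115 and 125, and Vdac2 (chromosome 14, 21825238 to 21845879) 65.9 and 58.3. The shares of VDAC TPM were 40.1% ± 0.498 for Vdac3, 39.4% ± 1.69 for Vdac1 and 20.4% ± 2.19 for Vdac2. Vdac1 and Vdac3 could not be ordered, since pool 1 put Vdac3 higher and pool 2 put Vdac1 higher, and Vdac2 was below both in each pool. By expected counts Vdac1 led with 45.4% ± 1.97 against 31.9% ± 0.421 for Vdac3. Slc25a4 exceeded Vdac1 by 3.71 ± 0.56 times in TPM.

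**Figure D2:**
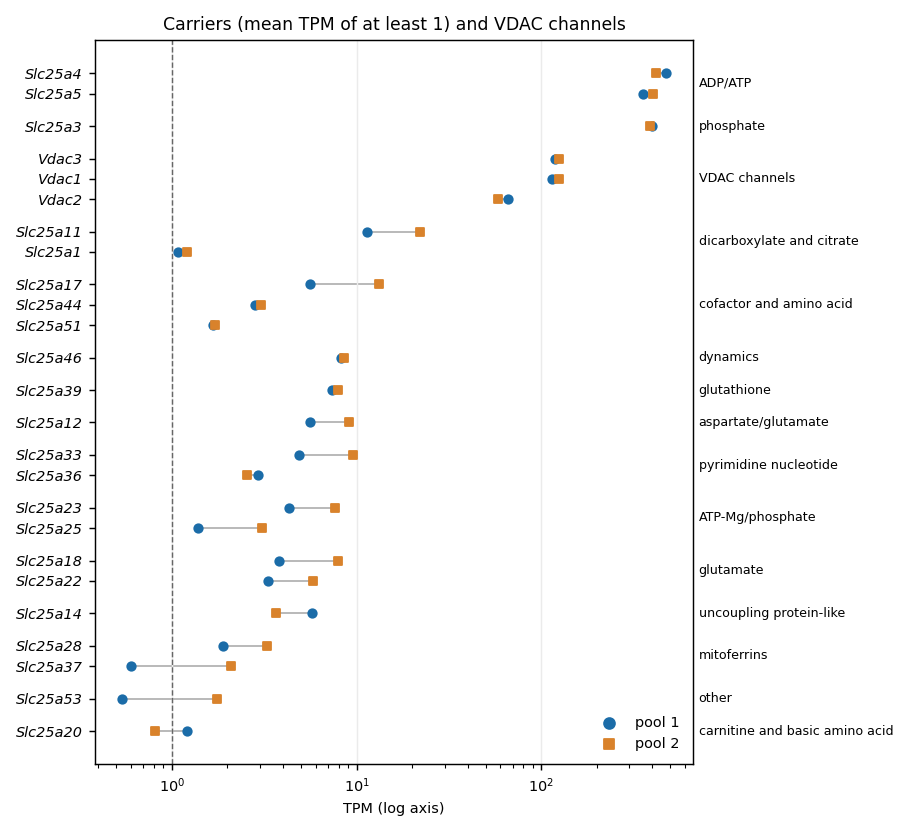
TPM (log axis) of 22 of the 23 Slc25a genes with a mean of at least 1 TPM and of the 3 Vdac genes in pool 1 (circles) and pool 2 (squares), grouped by substrate, with the dashed line at 1 TPM. Slc25a4, Slc25a5 and Slc25a3 lie between 350 and 500 TPM, the channels near 100, and all other carriers under 25, with wider gaps between the pools at lower levels.

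The other 43 carriers were low. Outside the ADP/ATP and phosphate carriers 16 of them were detected in both pools, with summed TPM over all 43 of 80.6 in pool 1 and 125.9 in pool 2. Slc25a11 was the only one with a mean of at least 10 TPM, at 11.4 and 22.1. Below it came Slc25a17, a cofactor carrier of the peroxisome, with 5.62 and 13.3 TPM, and Slc25a46, an outer membrane protein linked to mitochondrial shape, with 8.26 and 8.56. Slc25a39, which carries glutathione, gave 7.37 and 7.90. The first pair differed about as much between pools as between genes, while Slc25a46 and Slc25a39 were close in both. Genes below a mean of 10 TPM, other than Atp5s, are named here after their values were seen, except where a shared paralog group, the 1 TPM border or a difference between pools brings them in.

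Paralog pairs among the low carriers were uneven in most cases. Of the aspartate/glutamate carriers, which pass reducing equivalents into mitochondria, Slc25a12 gave 5.58 and 9.06 TPM and Slc25a13 0.22 and 0.17, so Slc25a12 held 97.2% ± 1.38 of the pair. Slc25a39 held 91.6% ± 3.41 against Slc25a40, and Slc25a14, an uncoupling protein-like carrier known from brain, 91.9% ± 3.06 of its group, with Slc25a27 at 7.67% ± 2.95. Slc25a23 held 72.8% ± 2.24 of the calcium-regulated ATP-Mg/phosphate carriers, Slc25a25 26.3% ± 3.39 and Slc25a24 0.907% ± 1.15. The glutamate carriers were closer, with 55.6% ± 2.99 for Slc25a18 and 44.4% ± 2.99 for Slc25a22. The mitoferrins, which bring iron in, and the pyrimidine nucleotide carriers had the widest spread, with Slc25a28 at 68.6% ± 10.4 over Slc25a37 and Slc25a33 at 70.7% ± 11.7 over Slc25a36. By expected counts the order turned for the mitoferrins, with 43.8% for Slc25a28 and 56.2% for Slc25a37, and for the glutamate carriers, with 47.2% for Slc25a18 and 52.8% for Slc25a22.

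Carriers of cofactors and amino acids were detected in part. Slc25a44, which carries branched-chain amino acids, gave 2.82 and 3.04 TPM and Slc25a51, which brings NAD into the matrix, 1.67 and 1.72. The citrate carrier Slc25a1 gave 1.08 and 1.21. Slc25a44, Slc25a51 and Slc25a1 were alike in both pools. The glycine carrier Slc25a38 had 20 counts in pool 1 and 92 in pool 2, the folate and FAD carrier Slc25a32 11 and 68, and the dicarboxylate carrier Slc25a10 11 and 62. These last 3 were several times higher in pool 2 on few reads. Of the 7 carriers listed for carnitine and basic amino acids, none was detected in both pools and 2 were detected in a single pool.

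**Figure D3:**
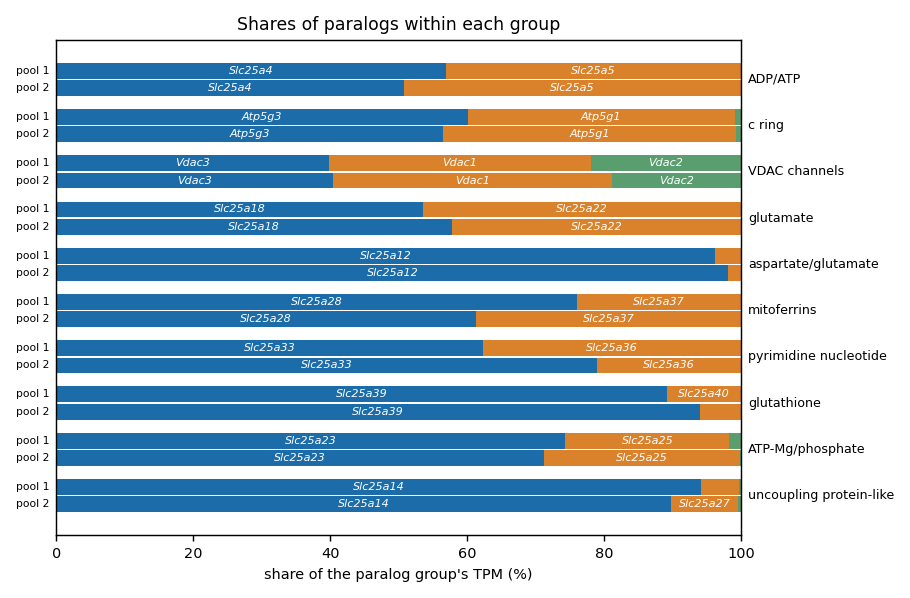
Share of each paralog group's TPM (percent, bars from 0 to 100) held by its members, with pool 1 above pool 2 in each group. The ADP/ATP, VDAC and glutamate groups are divided among members, while Slc25a12, Slc25a39 and Slc25a14 hold over 89% of their groups in both pools.

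At the lower border, Slc25a20, the carnitine/acylcarnitine carrier, lay just above a mean of 1 TPM with 1.21 and 0.81, and Slc25a16 just below with 1.27 and 0.65. In counts these were 83 and 49 for Slc25a20 and 157 and 69 for Slc25a16. Each was over 1 TPM in pool 1 and under it in pool 2, so detection of such genes depends on the pool. Besides Slc25a31, the carriers Slc25a41, Slc25a48 and Slc25a54 had 0 counts in both pools. Their limits at 3 counts are between 0.023 and 0.078 TPM. Counts of this size carry no molecular identifiers, so these limits cover counting error only.

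For several synthase genes, most of the level was assigned to transcripts that are not annotated as coding for the protein. Atp5b-206, a processed transcript of 478 bases, held 84.5% of Atp5b TPM in pool 1 and 82.3% in pool 2, Atp5b-203 held 12.3% and 12.6%, and all coding transcripts together 1.70% and 2.33%. In Atp5j, Atp5j-208, a retained-intron transcript of 526 bases, held 81.8% and 80.5%, and coding transcripts 17.9% ± 0.54. In Atp5f1, Atp5f1-203, annotated for nonsense-mediated decay, held a mean of 90.1%, and coding transcripts 9.71% ± 0.05. Atp5a1 had 67.3% ± 5.49 in coding transcripts, with 36.6% and 28.8% in Atp5a1-204, also annotated for decay. The same transcript led in both pools for 21 of the 21 members with at least 2 transcripts and at least 10 TPM in both pools. Ranking transcripts by expected counts gave 20 of 21, and lowering the threshold to 1 TPM gave 27 of 31. No matching share over all genes is given here, so these counts do not set the members apart from other genes.

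These transcripts mostly repeat the sequence of the coding transcript. Of the bases of Atp5b-206, 95.6% lie in exons of the coding transcript Atp5b-201, with 21 bases outside them. The values are 81.0% with 100 bases outside for Atp5j-208, 87.3% with 167 bases outside for Atp5f1-203, and 100% with 0 bases outside for Atp5a1-204. Reads in the shared bases fit more than 1 transcript, and how the reads lie along each gene is not analysed here. A share of coding transcripts under 50% of the TPM was found for 3 of the 23 members with a mean of at least 10 TPM. Of the 1982 protein-coding genes at 10 TPM in both pools, 14.7% were under that threshold.

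Atp5h, Atp5j2 and Atp5g3 each had a second coding transcript with at least 10% of TPM in both pools. Atp5h had 54.0% and 55.8% in Atp5h-208 and 42.1% and 40.4% in Atp5h-201. Atp5j2 had 10.3% and 11.2% in its second transcript and Atp5g3 18.0% and 15.2%. Atp5o had 85.8% and 92.6% in coding transcripts, with 6.15% and 5.31% in Atp5o-206, annotated for decay, and 8.06% and 2.09% in the retained-intron transcript Atp5o-204. Among lower carriers, Slc25a12 had 45.6% and 70.9% in Slc25a12-207, also annotated for decay, a share chosen after its values were seen. Its counts, 1009 and 1092, were closer between pools than its TPM. Slc25a4, Slc25a5, Slc25a11 and the 3 channels had over 99% of TPM in coding transcripts in both pools.

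Short transcripts raise TPM, so the levels were also computed with all counts of a gene divided by the effective length of its main coding transcript. On that scale Atp5b stood at 606 ± 27.9 in place of 2476 ± 58.7, which is rank 11 of the 67 members in place of rank 2, and Atp5j at 3143 ± 362 in place of 4587 ± 527, still at rank 1. With TPM of protein-coding transcripts only, Atp5j stood at 822 ± 119, rank 10, and Atp5k led with 2362 ± 146. The ratio of Atp5b to Atp5a1 became 2.38 ± 0.514 over the main coding length. With protein-coding transcripts only, it was 0.234 ± 0.089, and Atp5a1 was then above Atp5b in both pools. The direction of the beta to alpha ratio is thus not fixed by these files. The ratios of Slc25a4 to Slc25a5, of Atp5g3 to Atp5g1 and of Vdac1 to Vdac2 moved by less than their SD under either treatment. Nearly all TPM of these genes was in coding transcripts already, so the treatments could move the ratios little and do not test them.

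**Figure D4:**
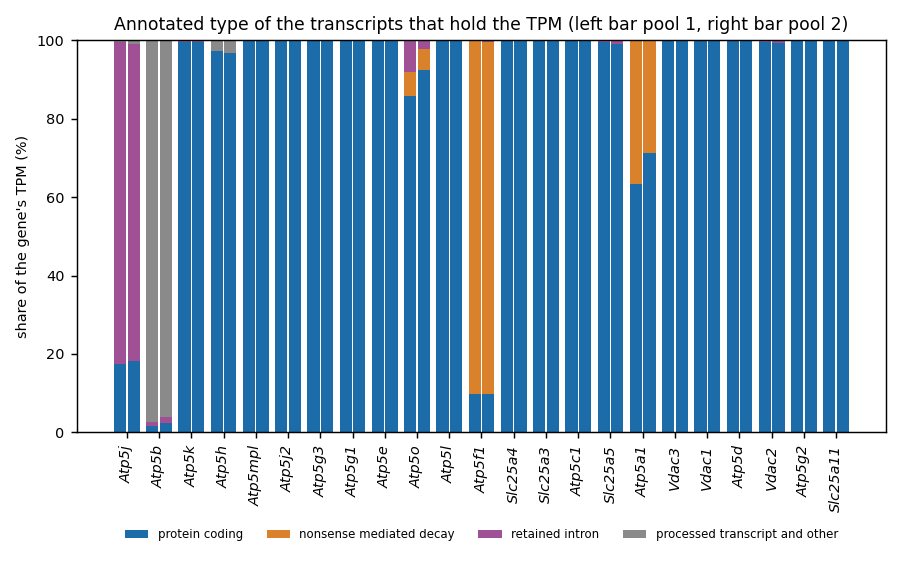
Share of each gene's TPM (percent) by annotated transcript type for the 23 members with a mean of at least 10 TPM, ordered by level, pool 1 left and pool 2 right. Atp5j, Atp5b and Atp5f1 have under 20% in protein-coding transcripts in both pools, Atp5a1 63.4% and 71.2%, and most other members close to 100%.

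Pseudogenes that match synthase genes were assigned many reads. Reads from the parent and from the pseudogene itself were not separated. Spliced pseudogene sequences were searched against all protein-coding transcripts and kept where the best match was a member. With at least 85% identity over at least 50% of the pseudogene, this matched 53 pseudogenes to 16 members. The largest case was Gm10221 on chromosome 5 (24581554 to 24581862), whose 309 bases in GENCODE M21 are identical to Atp5l on chromosome 9 (44912557 to 44920742). Gm10221 was assigned 44609 counts in pool 1 and 48753 in pool 2, against 13223 and 14926 for Atp5l itself. Copies of Atp5l together took 77.2% and 76.6% of the combined counts. With the TPM of its copies added, Atp5l had 4784 ± 826 TPM in place of 913 ± 174, rank 1 of the 17 Atp5 genes by the mean, although in pool 1 it stayed just below Atp5j. The 309 bases are the GENCODE M21 length of Gm10221 and need not be the length behind its deposited TPM. In pool 1, 44609 counts gave 3400 TPM for Gm10221, and 13223 counts gave 790 TPM for Atp5l. Gm10221 thus had more TPM per read, so the rank rests in part on length.

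For Atp5g2, copies took 70.9% and 66.0% of combined counts, all of them in Gm10175 on chromosome 7 (23946646 to 23947290), with 100% identity in the matched part. For Atp5g1 they took 23.4% and 22.3%, led by Gm10039 on chromosome 11 (100361716 to 100362126) with 7621 and 6712 counts at 99.8% identity. Copies of Atp5h took 11.6% and 10.9%, and those of Vdac3 8.87% and 6.99%. Copies of Atp5o, Atp5f1, Slc25a5 and the other members with any took under 4%. The posterior SD that the deposited tables give for a gene's count was 7.78% and 9.80% of the count for Atp5g2 and 1.69% and 1.85% for Atp5l. With the TPM of their copies added, the levels of Atp5l, Atp5g1, Atp5g2 and Atp5h moved by more than the SD between pools. These levels are uncertain to that extent if reads assigned to the copies came from the parent genes, which was not separated.

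Each library was compared with the other gene by gene on TMM-scaled counts with an exact binomial test (two-sided). It sets library against library and says nothing of a condition. Reads carry no molecular identifiers, so its p-values cover counting error of reads only. Of 60 members with at least 10 counts in total, 48 differed (edgeR's TMM scaling, exact binomial test, adjusted p under 0.05), 20 higher in pool 2 and 28 higher in pool 1. With scaling to total counts the split was 28 and 18, and with scaling to spike-ins 7 and 39, so the side depends on the scaling. Among all genes that differed, 51.2% were higher in pool 2 with TMM, 64.2% with total counts and 14.3% with spike-ins. The split thus moved with the scaling over all genes as well. Of all genes tested, 65.8% differed by the same rule with TMM scaling, so a difference between the pools is common at this depth. A ratio of more than 2-fold was found for 14 of 60 members, against 31.5% of all genes tested. Past 2-fold and higher in pool 2 were 10 of the 60 members, against 16.3% of all genes tested. All 14 were among the 40 carriers tested, so the share of carriers past 2-fold was near that of all genes.

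The Atp5 genes stayed within a narrow band between the pools. Their median log2 ratio, pool 2 over pool 1, was -0.31 with a range from -0.62 for Atp5a1 to 0.29 for Atp5s, against a median of 0.00 over all genes tested. Of the 17 genes, 15 were below that median, and Atp5l and Atp5s were above it. The 3 Vdac genes had a median of -0.20 and were all below it. The Purkinje markers had a median of -0.39. These directions hold on TMM-scaled counts. By TPM, the summed Atp5 level was 23258 in pool 1 and 23933 in pool 2, and the Atp5 median on the log2 scale was 10.25 and 10.36. With scaling to total counts, 7 of the 17 Atp5 ratios were positive. The part of the cell makeup in this was not tested.

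Carriers spread more widely, with a median log2 ratio of 0.32 over the 40 tested. On TMM-scaled counts the ADP/ATP and phosphate carriers were lower in pool 2, with -0.44 for Slc25a4, -0.09 for Slc25a5 and -0.31 for Slc25a3, although Slc25a5 was higher in pool 2 by TPM, while the other 37 tested had a median of 0.49. Bergmann glia and astrocyte markers had a median of 0.55, and 11 of the 13 were higher in pool 2. Slc25a18, a glutamate carrier known from astrocytes, had 196 and 354 counts and a log2 ratio of 0.80 (exact binomial test, adjusted p = 1e-09). Slc25a11 had 747 and 1246 counts and a ratio of 0.69 (exact binomial test, adjusted p = 1.5e-24). Whether glial RNA has a part in these differences was not tested.

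With mean counts of at least 100, 2 members passed 2-fold. Slc25a37, mitoferrin 1, had 100 counts in pool 1 and 297 in pool 2, a log2 ratio of 1.52 (exact binomial test, adjusted p = 2.2e-21). Slc25a16 had 157 and 69, a ratio of -1.23 (exact binomial test, adjusted p = 3.7e-09). Slc25a37 is known from red blood cell precursors. It was higher in pool 2, where red blood cell genes summed to 16.3 TPM against 2453 in pool 1. Whether red blood cell RNA has a part in the Slc25a37 difference was not tested. The remaining 12 past 2-fold had mean counts under 100.

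Scaling to spike-ins moved the median of all genes to -0.78, and scaling to total counts moved it to 0.19. A scaling factor moves every gene alike, so the distances from that median, -0.31 for Atp5 genes, 0.31 for carriers and -0.20 for Vdac genes, cannot depend on it. With spike-in scaling the carrier median changed sign to -0.46, the glial marker median to -0.23 and Slc25a11 to -0.09. The call for Slc25a18 was lost there, with a log2 ratio of 0.02 (exact binomial test, adjusted p = 0.915), and Slc25a37 no longer passed 2-fold, at 0.74. The relative spread between pools grew as the level fell. The median fold between pools in TPM was 1.09 for the 19 members with a mean of at least 100 TPM, with Atp5a1 widest at 1.37, and 1.68 for the 20 members between 1 and 10 TPM.

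**Figure D5:**
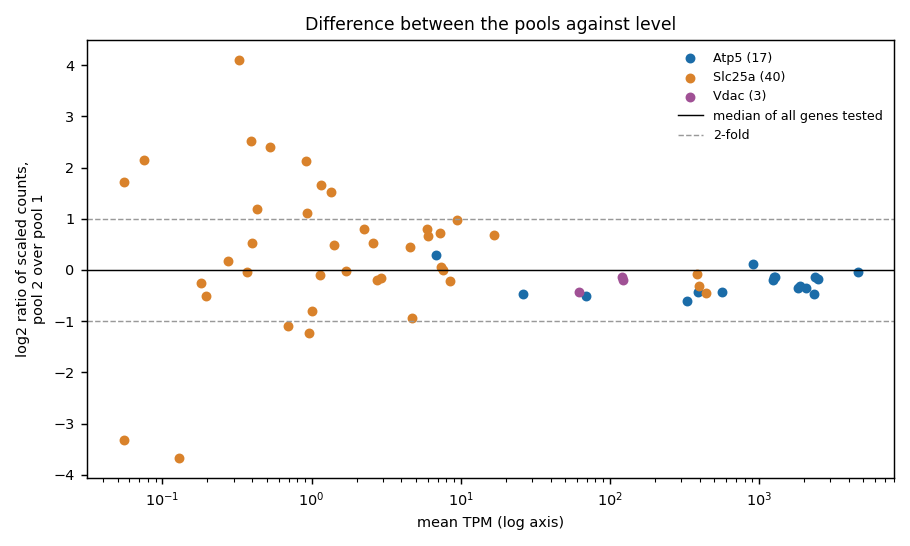
Log2 ratio of TMM-scaled counts, pool 2 over pool 1, against mean TPM (log axis) for the 60 members tested, coloured by family, with the median of all genes tested (solid line) and 2-fold (dashed lines). Atp5 and Vdac genes stay between -0.62 and 0.29, and all points past 2-fold are carriers of low level.

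Promoters of members were searched for 4 motifs on both strands in windows of 300 bases, mostly upstream of RefSeq gene starts (build GRCm38.p6). Windows were found for 13 Atp5 genes (16 windows) and 36 Slc25a genes (46 windows). The core GCATGCGC of the NRF1 motif, a factor known for nuclear genes of the respiratory chain, was in 3 of 16 Atp5 windows (18.8%), 2 of 46 carrier windows (4.35%) and 3.67% of 19931 windows of protein-coding genes. The ETS core CCGGAA was in 7 of 16, 26.1% and 19.3%, and CCAAT in 9 of 16, 47.8% and 37.8%. TATAAA was in 6.25%, 4.35% and 11.96%. None of the 4 motifs lies within another, some genes have more than 1 window, and a match describes letters in a window.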

How the data were processed

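RNA of 2 laser-captured pools of 30 Purkinje cells was measured. Per the labels, libraries used the SMARTer Ultra Low kit for complementary DNA. Per the text deposited with each sample, tables were made against mm10 with GENCODE M4. Neither the aligner nor the quantifier is given in the sources used here. Bias towards the C57BL/6 allele was not tested. Per the file headers, the deposited tables give expected counts, which are estimated reads and need not be whole, TPM, FPKM (used as an alternative), and, for each transcript, its percent of the TPM of its gene. Effective length enters the authors' TPM, so short transcripts gain more per read.

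Symbols, gene types and transcript sequences came from GENCODE M21, a later release on the same build, in which 285 of 310 member transcripts have the deposited length. Rows with numeric identifiers name no gene, held 0.000412% and 0.000194% of counts and were left out. Totals over all rows were 31503819 and 28709397 expected counts. Reads carry no molecular identifiers, so error at the level of molecules is not known. Expected counts were rounded for the exact binomial test, scaled with TMM (edgeR 4.0.16) and adjusted by Benjamini-Hochberg over genes with at least 10 counts, with 0.5 added for ratios. The test was run on simulated data with known folds before use. Pseudogenes were matched with BLAST 2.17.0. Sums, shares and medians were computed in Python 3.11.15 with pandas 2.3.3.

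The members and lists were chosen with earlier results of these data known. Named were all Atp5 and Vdac genes, carriers with a mean of at least 10 TPM, members of paralog groups with a share, members past 2-fold with a mean of at least 100 counts, the 6 highest partners, and the members beside 1 TPM. For transcripts, up to 8 members with a second transcript of at least 10% in both pools were named. Genes outside these rules, and transcripts of Atp5f1 and Slc25a3, were chosen after their values were seen. Alternatives were posterior means, FPKM, other thresholds, other scalings (DESeq2 1.42.0 size factors, total counts, spike-ins), transcript treatments and leaving out each pool. The values of 1 carrier are not reported here.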

Additional observations from a re-analysis of the deposited data

Results flagged for a closer look

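Pseudogenes named for synthase genes fall outside the protein-coding rule but carried counts above the limit of 3 that a count of 0 allows. Atp5k-ps2 had 18.89 expected counts in pool 1 and 25.62 in pool 2. Atp5l2-ps had 36.38 and 55.71, and Atp5l-ps1 4.95 in pool 1. No control samples exist in which to set a background, and shared sequence with the parent genes was not separated from them.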

How the results depend on the processing

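Of 53 alternative values for the main results that use both pools, 37 stayed within the spread between pools or, for counts, within 1.5 times. Some could not move, so this tally is no measure of stability. All Atp5 genes were detected, so limiting their median to detected members left the same genes. Among carriers only Slc25a5, far above the median, had pseudogenes with counts. Since Slc25a31 had no counts, the shares of Slc25a4 and Slc25a5 mirror each other and enter as separate results. The synthase median on the log2 scale moved from 10.30 to 10.63 with FPKM, to 11.19 with TPM rescaled over protein-coding nuclear genes, to 9.82 with TPM of protein-coding transcripts only and to 10.81 with matching pseudogenes added. The carrier median moved from 0.91 to 1.38 with the rescaled TPM, to -0.0625 with a pseudocount of 0.1 and to 2.10 over members at a TPM of at least 1 in at least 1 pool. With expected counts, which omit the length correction, the shares moved to 65.1% for Slc25a4, 34.9% for Slc25a5, 36.2% for Atp5g1, 62.8% for Atp5g3 and 45.4% for Vdac1. With matching pseudogenes added, Atp5g1 moved to 49.6% and Atp5g3 to 47.8%. Members past 2-fold went from 14 of 60 to 25 of 60 with spike-in scaling. With at least 100 counts in total, where fewer genes are tested, they were 6 of 48. The share of all genes past 2-fold moved alike, from 31.5% to 46.6% with spike-in scaling and to 17.6% with at least 100 counts.

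Slc25a18 went to 0.02 and Slc25a11 reversed to -0.0917 with spike-in scaling, and the Atp5b to Atp5a1 ratio reversed to 0.234 with protein-coding transcripts only. For each change not set by the construction of the alternative, the cause was not tested. With 2 pools, a single pool always lies within 1 SD of their mean, so leaving one out says nothing of stability. It gave 41 to 44 members detected, a synthase median of 10.25 to 10.36, a carrier median of 0.68 to 1.14, and shares of 50.7% to 56.9% for Slc25a4, 43.1% to 49.3% for Slc25a5, 39.0% to 42.7% for Atp5g1, 56.5% to 60.1% for Atp5g3 and 38.2% to 40.6% for Vdac1. The comparisons between pools need both. The alternatives on transcripts and, outside the shares, on pseudogenes were chosen after seeing the data. No paired analysis was possible because the pools form a single group. Depth limits carriers under about 100 counts.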
